A study of Mus musculus with 4 samples.

Results

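Expression of the Wnt signalling genes was examined in mouse ovaries at E13.5, about when ovarian germ cells enter meiosis, that overexpress Sall1. The genes were chosen by name from the deposited count table: 56 of its 34682 rows, comprising 19 Wnt ligands, 10 Frizzled receptors, the coreceptors Lrp5 and Lrp6 with the effector Ctnnb1, 4 R-spondins, 5 R-spondin receptors and ligases, 9 secreted antagonists and 6 feedback genes and targets. All 56 names were found in the table. The data comprise 4 bulk RNA-seq libraries, 2 from mutant ovaries and 2 from wild-type ovaries, numbered 1 and 2 in each genotype. Mutant ovaries carried a BAC, a large cloned genomic insert, in which the coding sequence of mouse Sall1 is driven by the promoter and regulatory elements of Wt1, a gene active in the somatic cells of the gonad. The construct was inserted by PiggyBac transposition into female mouse embryonic stem cells, and morula aggregation was used to make transgenic mice. The methods derive these cells from C57BL/6J blastocysts, while a general statement on the transgenic experiments also names a hybrid with 129. Whether the sequenced embryos came directly from aggregation or from later breeding is not given in the sources used here. The wild-type ovaries are labelled without the overexpression. The methods name wild-type CD1 mice for RNA-seq gonads while the control columns of the count table are labelled B6, and the results call the controls littermates, so a difference in strain background between the genotypes cannot be told apart from the transgene. Whether several ovaries were pooled per library, and how many stem cell clones the embryos came from, is not given in the sources used here.

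Wnt ligands bind Frizzled receptors and the coreceptors Lrp5 and Lrp6, which leads to stabilisation of β-catenin, the product of Ctnnb1, and to transcription with the partner proteins Tcf and Lef. R-spondins bind Lgr receptors and remove the ligases Znrf3 and Rnf43, which otherwise clear Frizzled receptors from the cell surface, and so strengthen the signal. In the fetal ovary, Wnt4 and Rspo1 act through β-catenin to promote ovarian and restrain testicular differentiation, while in the adjacent ducts and in the kidney other ligands, such as Wnt9b and Wnt11, act in tubule and branching morphogenesis.

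The 4 libraries held between 11036313 and 17869840 counts, with the mutant libraries at 11036313 and 14893508 and the wild-type libraries at 17214470 and 17869840. Levels are given as CPM, the counts scaled to a common library size after TMM normalisation, which scales each library by its depth and composition. A count of 3, taken as the floor of detection, equalled 0.170 to 0.272 CPM, a limit that covers counting error only. Sall1 itself was at 113 and 96.0 CPM in the mutant libraries and at 16.2 and 12.6 CPM in the wild-type libraries, 2.85 higher on the log2 scale (SE 0.16, adjusted p = 0.00823; here and below p-values are from the quasi-likelihood test of edgeR, adjusted by Benjamini-Hochberg, unless DESeq2 is named). Among marker lists, the meiotic germ cell genes summed to 1428 and 1692 CPM in the mutant and 1557 and 1614 CPM in the wild-type libraries, and the pre-granulosa cell genes to 404 and 380 against 368 and 372 CPM, whereas the Sertoli cell genes summed to 16.2 and 17.1 against 12.4 and 15.6 CPM. Of the Sertoli cell genes, Amh had 3 counts in each library. Ptgds, which encodes a prostaglandin D synthase, had 3.45 and 4.45 CPM in mutant against 1.16 and 1.19 CPM in wild-type libraries. This was a log2 difference of 1.75 (adjusted p = 0.266 in edgeR, 0.0105 with the replicate number as a block and 0.272 in DESeq2). The other Sertoli cell genes tested were mixed, with log2 fold changes of 0.32 for Sox9, -0.34 for Fgf9, -0.11 for Cyp26b1 and -0.12 for Dhh. The median of the 5 tested was -0.11. Which libraries share a litter, and whether the libraries of a genotype came from separate animals, is not given in the sources used here, so the p-values measure the spread between these libraries, which may be technical.

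Of the 56 genes, 55 had at least 1 count and 42 were expressed, defined as a mean of at least 1 CPM over the 4 libraries. All 10 Frizzled receptors, the coreceptors and Ctnnb1, all 5 R-spondin receptors and ligases and all 6 feedback genes and targets reached this level. Of the others, 8 of 19 ligands, 3 of 4 R-spondins and 7 of 9 secreted antagonists did. The genes under 1 CPM were thus mostly ligands. Wnt1 had 0 counts in every library, which allows a level of up to 0.272 CPM in the shallowest of them. Wnt3a, Wnt7a, Wnt8a, Wnt8b, Wnt9b and Wnt10b had between 0 and 7 counts in any library. Wnt7b and Wnt16 had between 3 and 16 counts and were, like these 7 genes, not tested. Wnt7a, a marker of the Müllerian duct epithelium, had 4 and 0 counts in the mutant and 2 and 4 counts in the wild-type libraries. Wnt9b, which marks the mesonephric duct, had 7 and 3 against 0 and 4 counts. The mesonephric duct and tubule list summed to 37.2 and 51.7 CPM in mutant and 37.5 and 41.6 CPM in wild-type ovaries, with its members Pax8, Gata3, Ret and Lhx1 all above 1 CPM on average.

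Across all genes, 9 of the 15442 tested by edgeR passed an adjusted p of 0.05, or 0.0583%, of which 2 were higher (0.013%) and 7 lower (0.0453%) in mutant ovaries. Of the Wnt signalling genes 45 passed the filter on low counts and were tested, and 0 of them passed. With an unadjusted p under 0.05, 6 of the 45 remained, 4 higher and 2 lower in mutant ovaries, against 5.69% of all genes tested, 2.95% higher and 2.73% lower. DESeq2, which the study used, gave 1 gene, Lgr5, against 0.694% of the genes for which it gave an adjusted p. Adding the replicate number to the edgeR fit as a block gave 5 genes, against 2.49% of all genes. The count table names same-numbered libraries of the 2 genotypes with consecutive library numbers, so the adjusted p with this block is also given where it changes a call. The median log2 fold change of the 45 genes was -0.027 on the log2 scale, against -0.00088 for all genes tested. In 27 of the 45 genes the log2 fold change lay within 0.2 of zero, compared with 69.3% of all genes, and in 10 it exceeded 0.5 in size, compared with 10.4%. Among these 10, Wnt2, Rspo2, Wif1, Dkk1 and Rspo4 were scarce, with means from 0.483 to 1.42 CPM over all libraries. The value of Dkk2, also among them, rests on mutant replicate 1. Both mutant libraries lay above both wild-type libraries for 8 of the 45 genes and below them for 6, against backgrounds of 15.8% and 15.1%, or 30.9% for either. For 2 libraries against 2, the smallest p of an exact permutation test is 0.333, so every p-value here rests on a model that shares the spread across genes.

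**Figure D1:**
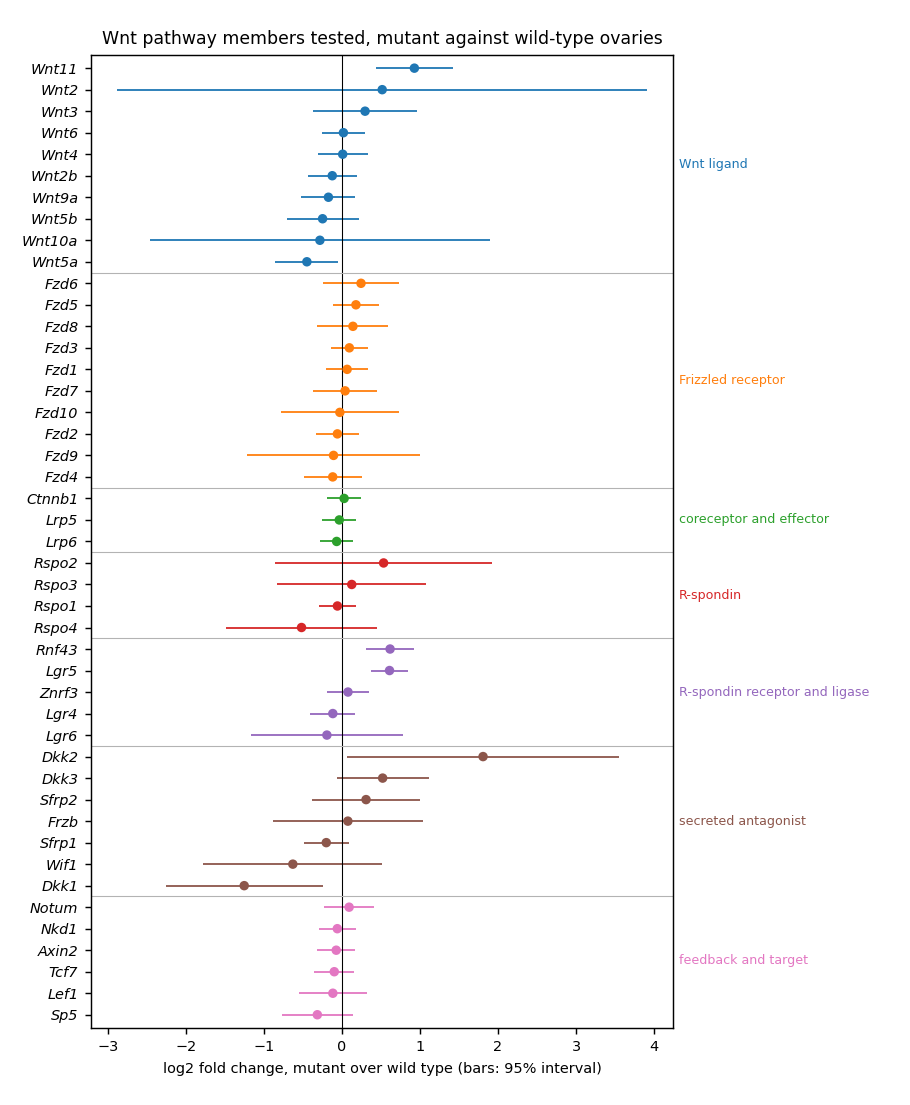
Points show the fitted log2 fold change of each of the 45 genes tested, mutant over wild-type ovaries (horizontal axis), and bars its 95% interval from edgeR; genes are grouped by role and ordered by fold change. The intervals of Wnt11, Wnt5a, Rnf43, Lgr5, Dkk1 and Dkk2 exclude zero before adjustment for multiple testing, and those of the feedback genes and targets all include it.

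The R-spondin branch contained the gene with the smallest p, Lgr5. This receptor of R-spondins, which marks stem cells in several epithelia and supporting cells of the fetal ovary, had 164 and 152 CPM in the mutant libraries against 109 and 97.3 CPM in the wild-type libraries. Both mutant libraries were above both wild-type libraries, and the gap between the genotypes was wider than that between replicates. The group levels were 158 ± 8.44 CPM (SD, n = 2) and 103 ± 8.51 CPM (SD, n = 2). This was a log2 fold change of 0.61 (SE 0.10, 95% interval 0.37 to 0.85; adjusted p = 0.176 in edgeR, 0.000635 with the block and 0.00194 in DESeq2). The difference was 0.58 in replicate 1 and 0.64 in replicate 2 on the log2 CPM scale. Lgr5 lies on the minus strand of chr10:114887367-115024836 (GENCODE M1, assembly NCBIM37, the same as mm9).

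Rnf43, a membrane ligase that is itself a target of the pathway and removes Frizzled receptors, had 29.1 and 29.0 CPM in mutant against 20.1 and 17.8 CPM in wild-type libraries. Here too the groups did not overlap. The log2 fold change of 0.62 (standard error 0.13, 95% interval 0.31 to 0.93) had an adjusted p of 0.305 in edgeR and 0.306 in DESeq2, and of 0.0138 in edgeR with the block. The difference was 0.54 in replicate 1 and 0.70 in replicate 2. Its paralogue Znrf3 was level, at 45.6 and 46.5 against 41.6 and 45.7 CPM, a log2 fold change of 0.08 (95% interval -0.19 to 0.34).

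The main R-spondin receptor by level was Lgr4, which reached 284 and 227 CPM in mutant and 283 and 271 CPM in wild-type libraries. The groups overlapped, and the log2 fold change was -0.12 (95% interval -0.41 to 0.17). Per kilobase of exon, Lgr4 stood at 45.3 CPM and Lgr5 at 12.7 CPM over all libraries. Lgr6 was near the threshold of expression in every library, between 1.26 and 1.98 CPM.

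Rspo1, the ovarian R-spondin, had 84.9 and 93.7 CPM in mutant against 93.9 and 92.3 CPM in wild-type libraries. The groups overlapped and the log2 fold change was -0.06 (standard error 0.10, 95% interval -0.29 to 0.18, adjusted p = 1.00 in edgeR). At 47.1 CPM per kilobase it ranked 3 among all 56 genes, after Ctnnb1 and Wnt6. Rspo3 followed at 1.81 CPM per kilobase, with 6.17 and 2.92 CPM in mutant and 3.55 and 4.70 CPM in wild-type libraries. Its replicates differed more than its genotypes did. Rspo2 and Rspo4 stayed under 2 CPM in each library.

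**Figure D2:**
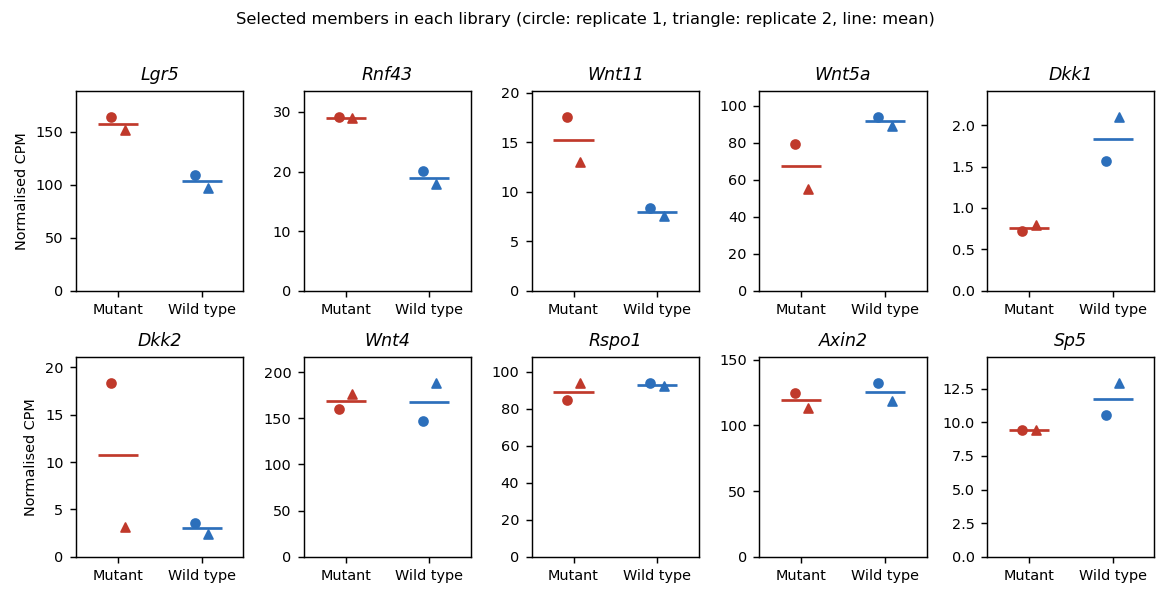
Each panel shows the normalised CPM of a gene (vertical axis, from 0) in the mutant and wild-type libraries, with replicate 1 as a circle, replicate 2 as a triangle and the group mean as a line. Lgr5, Rnf43 and Wnt11 lie higher and Wnt5a, Dkk1 and Sp5 lower in both mutant libraries, Dkk2 is high in mutant replicate 1 alone, and Wnt4, Rspo1 and Axin2 overlap between the genotypes.

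Beside the higher Lgr5 and Rnf43 levels, the pre-granulosa cell markers were mixed. Of 7 genes, 4 had both mutant libraries above the wild-type range, among them Foxl2 with 46.3 and 44.1 against 28.0 and 32.0 CPM, and 1, Bmp2, had both below it, against 15.8% and 15.1% of all genes tested. The adjusted p of Foxl2 was 0.301 in edgeR, 0.00878 with the block and 0.142 in DESeq2. Gng13, with overlapping groups at 14.7 and 21.2 against 20.3 and 40.9 CPM, had a log2 fold change of -0.76 (adjusted p = 0.898 in edgeR and 0.00869 with the block). The summed level of the list was 404 and 380 CPM in mutant and 368 and 372 CPM in wild-type ovaries. In bulk ovaries, more cells of a type and more RNA per cell cannot be told apart, and the part of these cells in the Lgr5 and Rnf43 values was not tested.

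Among the ligands, the highest levels per kilobase belonged to Wnt6 (49.3 CPM), Wnt4 (40.0 CPM) and Wnt2b (25.1 CPM), followed by Wnt5a (10.1 CPM), Wnt5b (9.50 CPM), Wnt9a (7.18 CPM), Wnt11 (3.20 CPM) and Wnt3 (1.27 CPM). Wnt4, the ligand required for ovarian differentiation, had 160 and 177 CPM in mutant and 147 and 188 CPM in wild-type libraries. The mutant values lay inside the wild-type range, and the log2 fold change was 0.01 (standard error 0.13, 95% interval -0.31 to 0.33, adjusted p = 1.00 in edgeR). Wnt6 had 113 and 92.7 against 98.5 and 104 CPM, with a log2 fold change of 0.02 (95% interval -0.26 to 0.30). Wnt2b had 85.3 and 86.6 against 82.2 and 105 CPM, with a log2 fold change of -0.12 (95% interval -0.44 to 0.19). For each of these abundant ligands the gap between the wild-type replicates was larger than the difference between the genotype means.

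Wnt11 had the smallest p among the ligands tested (unadjusted p = 0.00318 in edgeR). This ligand, which is expressed at the tips of the branching ureteric bud in the kidney, had 17.5 and 13.0 CPM in the mutant libraries, from 193 and 195 counts, against 8.37 and 7.59 CPM in the wild-type libraries, from 144 and 134 counts. Both mutant values exceeded both wild-type values. The log2 fold change of 0.93 (standard error 0.21, 95% interval 0.43 to 1.42) was the largest among the expressed ligands. Its adjusted p was 0.347 in edgeR and 0.198 in DESeq2, and 0.00914 in edgeR with the block. It was 1.05 in replicate 1 and 0.76 in replicate 2. The metanephric progenitor list, which holds kidney genes such as Six2 and Osr1, had 0 of its 4 tested genes with both mutant libraries above or below the wild-type range. Of the 6 tested mesonephric genes Pax8 lay above it and Ret below it, against 30.9% of all genes tested either way. Wnt11 lies on chr7:105983622-106003705 (NCBIM37, plus strand). Its longest single exon overlap with Gm8398, on the opposite strand, is 364 bases. Reads from the overlap of this pair cannot be told apart, since the handling of strands is not given in the sources used here.

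A promoter sequence is shown for Wnt11, as the ligand with the clearest difference, with letters matching the core recognition site of Tcf and Lef proteins, CTTTGAT or its reverse complement ATCAAAG, in capitals. It covers 250 bases before to 50 bases after a RefSeq transcription start, at chr7:98834862-98835161 on the plus strand of GRCm38.p6, and the match begins at position -51.
Wnt11: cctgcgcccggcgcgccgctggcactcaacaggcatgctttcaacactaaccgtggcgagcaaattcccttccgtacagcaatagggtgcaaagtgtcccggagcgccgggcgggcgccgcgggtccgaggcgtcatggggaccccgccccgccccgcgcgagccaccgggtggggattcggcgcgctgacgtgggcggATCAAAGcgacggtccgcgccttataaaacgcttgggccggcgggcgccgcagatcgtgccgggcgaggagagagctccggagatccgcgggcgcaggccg

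Of the 56 genes, 38 had a promoter entry in the RefSeq-derived table, and 3 of these 38, Wnt11, Wnt5b and Sp5, held the 7 letters on either strand in at least 1 promoter. Over single promoters the motif was in 3 of 47 entries of these genes and in 1225 of all 32851 entries, or 3.73%. Lgr5 has no entry in that table. A second RefSeq start of Wnt11, at chr7:98838595-98838894, did not hold these letters.

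Wnt5a, a ligand that acts largely without β-catenin and is made by mesenchymal cells, was lower in mutant ovaries, at 79.3 and 55.1 CPM against 93.8 and 89.3 CPM. Mutant replicate 2 was the lowest library, and both mutant libraries were below both wild-type libraries. On the log2 scale the fold change was -0.45 (standard error 0.17, 95% interval -0.85 to -0.05, adjusted p = 0.806 in edgeR, 0.0301 with the block and 0.611 in DESeq2). This value rests largely on mutant replicate 2: without mutant replicate 1 it was -0.73, and without mutant replicate 2 it was -0.21. The longest single exon overlap of Wnt5a with Gm2670, on the opposite strand, is 233 bases. The paralogue Wnt5b had 26.9 and 18.7 against 29.2 and 24.9 CPM, with overlapping groups and a log2 fold change of -0.25 (95% interval -0.71 to 0.21).

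Most interstitial cell markers were, like Wnt5a, lower in both mutant libraries. Of 6 genes, 5 had both mutant libraries below the wild-type range (15.1% of all genes tested) and 0 above it (15.8%), with Tcf21 at 28.0 and 23.3 against 57.7 and 51.7 CPM. The list summed to 441 and 321 CPM in mutant and to 549 and 521 CPM in wild-type ovaries, with mutant replicate 2 lowest as for Wnt5a. For the surface epithelium the sums were 171 and 123 against 199 and 205 CPM. Of its 5 tested genes, 2 lay below the wild-type range, 0 lay above it and 3 overlapped. Upk3b was at 63.5 and 48.3 against 86.3 and 97.8 CPM, whereas Krt19 had a log2 fold change of -0.01. None of these markers was at 0 in every library, and their part in the Wnt5a value was not tested.

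**Figure D3:**
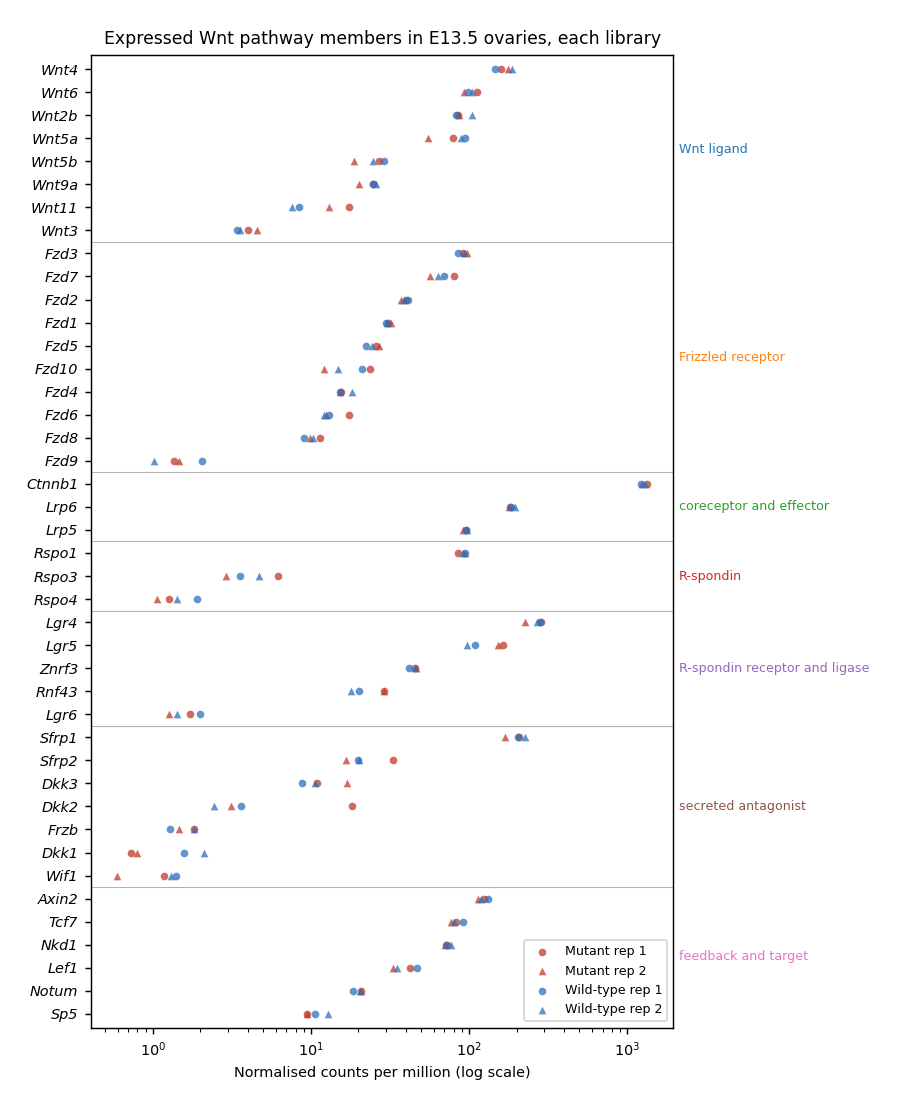
Normalised CPM (horizontal log axis) of the 42 expressed genes in each of the 4 libraries, grouped by role and ordered by mean level; red marks mutant and blue wild-type libraries. The libraries of most genes lie close together across a range from about 1 CPM for Dkk1 and Wif1 to 1336 CPM for Ctnnb1, and Dkk2 in mutant replicate 1 stands apart.

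All Frizzled receptors were expressed and 0 of the 10 had an unadjusted p under 0.05, against 5.69% of all genes tested. A count of 0 is near that background for so short a list. Their log2 fold changes ranged from -0.12 for Fzd4 to 0.24 for Fzd6, with a median of 0.05. Fzd3, the most abundant per kilobase at 21.7 CPM and known for axon guidance and planar polarity, had 92.3 and 97.6 CPM in mutant against 84.9 and 93.0 CPM in wild-type libraries. Fzd7, the next at 14.1 CPM per kilobase, had 80.8 and 56.6 against 69.3 and 64.0 CPM, so that the mutant libraries spanned the wild-type range. Fzd1 and Fzd5 had both mutant libraries above both wild-type libraries, by log2 fold changes of 0.07 (95% interval -0.20 to 0.34) and 0.18 (95% interval -0.12 to 0.48). Fzd9 was the scarcest, between 1.02 and 2.03 CPM.

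Ctnnb1, which encodes β-catenin, was the most abundant of the 56 genes, with 1336 and 1239 CPM in mutant and 1222 and 1304 CPM in wild-type libraries. Its log2 fold change was 0.03 (standard error 0.09, 95% interval -0.19 to 0.24). Lrp6 had 183 and 179 against 183 and 196 CPM, with a log2 fold change of -0.07 (95% interval -0.28 to 0.14). Lrp5 had 96.4 and 91.9 against 96.2 and 96.5 CPM. For Lrp6 both mutant libraries lay below both wild-type libraries.

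The feedback genes and targets, which are transcribed in response to β-catenin and serve as a readout of the canonical pathway, had 0 of 6 with an unadjusted p under 0.05, which for 6 genes is also near the background of 5.69%. These 6 are not all targets of the pathway. Rnf43, also a target, is counted with the R-spondin receptors and ligases, at a log2 fold change of 0.62 (unadjusted p = 0.00223 in edgeR). A further 6 targets are counted with the other pathway genes, of which 1 was higher and 2 were lower with an unadjusted p under 0.05. Axin2, a scaffold for β-catenin degradation and the most used target, had 125 and 113 CPM in mutant against 132 and 119 CPM in wild-type libraries. In each genotype replicate 1 was above replicate 2, and the groups overlapped. The log2 fold change was -0.07 (standard error 0.10, 95% interval -0.32 to 0.17, adjusted p = 1.00 in edgeR). Lef1 had 42.6 and 33.2 against 47.0 and 35.1 CPM, with a log2 fold change of -0.12 (95% interval -0.56 to 0.32). Tcf7, which like Lef1 encodes a nuclear partner of β-catenin, had 82.9 and 77.3 against 91.1 and 80.5 CPM, with a log2 fold change of -0.10 (95% interval -0.36 to 0.16).

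Nkd1, an inhibitor that binds Dishevelled, was at 72.4 and 70.5 against 72.0 and 77.0 CPM. Notum, a secreted enzyme that removes the lipid from Wnt ligands, was at 20.7 in both mutant libraries against 18.5 and 20.3 CPM, a log2 fold change of 0.09 (95% interval -0.23 to 0.41), with both mutant libraries above the wild-type range. Sp5, a transcriptional repressor induced by β-catenin, had both mutant libraries below both wild-type libraries, at 9.44 CPM in each against 10.6 and 12.9 CPM. Its log2 fold change of -0.32 (standard error 0.19, 95% interval -0.77 to 0.14) did not pass, with an adjusted p of 1.00 in edgeR. Of the 6 feedback genes and targets on this list, 4 were lower in both replicate pairs and 1 was higher in both, compared with 27.3% and 26.5% of all genes tested.

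The Sp5 promoter is shown as that of the feedback gene with a match to the same Tcf and Lef letters, in capitals, and the Axin2 promoter for comparison, as the most used target. Sp5 is given at chr2:70474673-70474972 and Axin2 at chr11:108920099-108920398, both on the plus strand of GRCm38.p6. The match in Sp5 begins at position -104, and the Axin2 window does not hold these letters, which says nothing of sites elsewhere in the gene.
Sp5: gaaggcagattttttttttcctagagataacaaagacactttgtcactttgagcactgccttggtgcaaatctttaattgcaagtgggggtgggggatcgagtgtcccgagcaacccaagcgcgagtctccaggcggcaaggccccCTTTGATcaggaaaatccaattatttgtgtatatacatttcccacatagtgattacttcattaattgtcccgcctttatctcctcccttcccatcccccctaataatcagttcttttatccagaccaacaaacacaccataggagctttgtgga
Axin2: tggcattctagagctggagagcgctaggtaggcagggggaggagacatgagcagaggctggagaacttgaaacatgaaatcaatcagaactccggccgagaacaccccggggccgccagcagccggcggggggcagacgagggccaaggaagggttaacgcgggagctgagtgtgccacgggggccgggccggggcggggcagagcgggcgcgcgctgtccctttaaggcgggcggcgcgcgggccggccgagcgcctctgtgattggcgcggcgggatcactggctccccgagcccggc

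**Figure D4:**
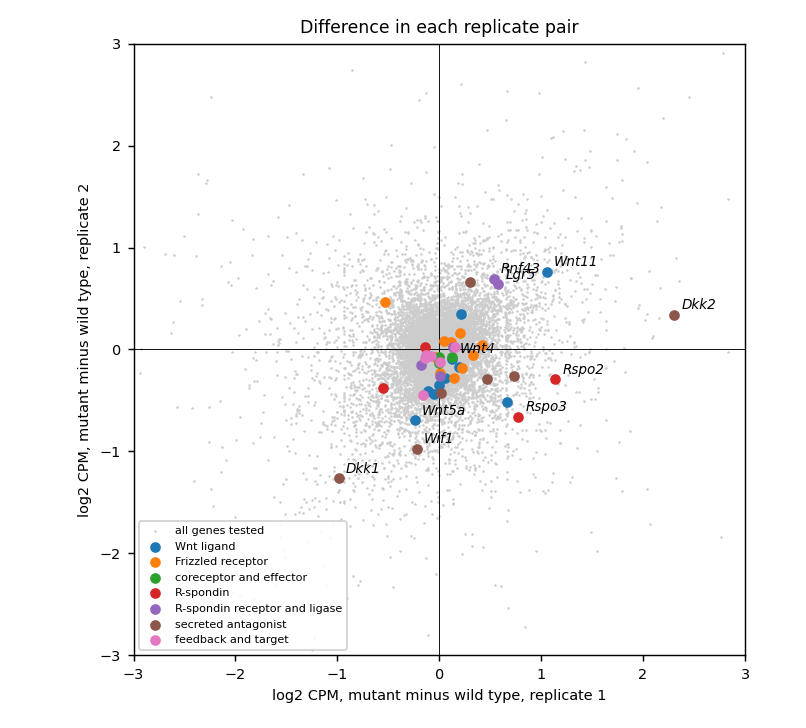
Difference in log2 CPM, mutant minus wild type, in replicate 1 (horizontal axis) and in replicate 2 (vertical axis) for the 45 genes tested, coloured by role, over all 15442 genes in grey. Lgr5, Rnf43 and Wnt11 lie in the upper right, Dkk1 in the lower left, and Dkk2 far to the right with a small difference in replicate 2.

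In each replicate pair, the change was taken as the difference in log2 CPM between the libraries of the same number, with a prior count of 2. Of the 45 genes, 25 had the same sign in both pairs, 12 higher and 13 lower in mutant ovaries, while 20 had opposite signs. Over all genes tested, 53.8% had the same sign. The median difference of the 45 genes was 0.05 in replicate 1 and -0.13 in replicate 2, against -0.00027 and -0.0042 for all genes. Examples of opposite signs were Rspo3, with 0.78 and -0.66, and Sfrp2, with 0.73 and -0.26. Same-numbered libraries carry consecutive library numbers and the controls are called littermates, but whether a number marks a litter or a preparation is not given in the sources used here.

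The secreted antagonists keep ligands or coreceptors from signalling. Sfrp1, which binds Wnt ligands and is the most abundant of them at 46.1 CPM per kilobase, had 206 and 169 CPM in mutant against 203 and 228 CPM in wild-type libraries, with a log2 fold change of -0.20 (95% interval -0.49 to 0.09). Sfrp2 had 33.3 and 16.7 against 20.0 and 20.1 CPM, and mutant replicate 1 stood above the other 3 libraries. Dkk1, which blocks the coreceptors Lrp5 and Lrp6, was scarce, with 8 and 12 counts in mutant and 27 and 37 counts in wild-type libraries, or 0.726 and 0.798 against 1.57 and 2.10 CPM. The groups did not overlap, and the fold change was -1.25 on the log2 scale (standard error 0.42, 95% interval -2.26 to -0.25, adjusted p = 0.720 in edgeR and 1.00 in DESeq2).

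Dkk2, a relative that can act on the coreceptors in either direction, had 18.3 and 3.12 CPM in mutant against 3.60 and 2.44 CPM in wild-type libraries, from 202, 47, 62 and 43 counts. Only mutant replicate 1 stood apart, and mutant replicate 2 fell inside the wild-type range. The fitted log2 difference of 1.81 (SE 0.73, adjusted p = 0.857 in edgeR and 0.0303 with the block) therefore rests on that library. Without mutant replicate 1 it was 0.05, and without mutant replicate 2 it was 2.598. Dkk3, a divergent member of the family, had 10.9 and 16.9 against 8.83 and 10.7 CPM, with a log2 fold change of 0.52 (95% interval -0.07 to 1.11) and both mutant libraries above the wild-type range. Wif1, which binds ligands directly, had 1.18 and 0.598 against 1.39 and 1.30 CPM. Sfrp4 and Sfrp5 had between 4 and 15 counts in each library and were not tested.

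Some scarce ligands followed the replicate number more than the genotype. Wnt2 had 13 and 0 counts in the mutant and 12 and 1 counts in the wild-type libraries, and was thus almost confined to replicate 1 of each genotype. Wnt10a had 8 and 2 against 13 and 4 counts. These were the 2 of 45 genes that were over 2-fold higher in replicate 1 than in replicate 2 in both genotypes, compared with 1.19% of all genes tested, and 0 were over 2-fold higher in replicate 2, compared with 0.35%. Of the 6 tested skeletal muscle markers, 5 had the same pattern, and the list summed to 66.8 and 42.1 CPM in mutant and 231 and 37.5 CPM in wild-type libraries. The blood cell list summed to 2912 and 809 CPM in mutant and to 3211 and 1602 CPM in wild-type libraries, also higher in replicate 1. The part of these tissues in the Wnt2 and Wnt10a counts was not tested.

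**Figure D5:**
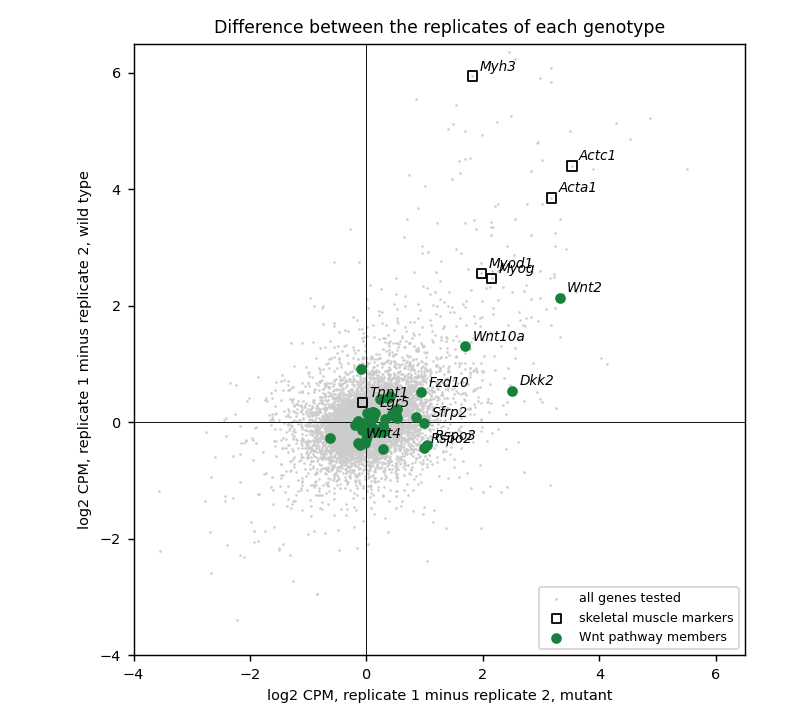
Difference in log2 CPM between replicate 1 and replicate 2 in mutant (horizontal axis) and wild-type ovaries (vertical axis), for the 45 genes tested in green, the skeletal muscle markers as open squares and all genes tested in grey. Wnt2 and Wnt10a lie in the upper right, on the side of the muscle markers Myh3, Actc1, Acta1, Myod1 and Myog, while Wnt4 and Lgr5 lie near the centre.

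The rest of the pathway was read from a list of 73 other genes, chosen with earlier results of these data known. They cover ligand secretion, coreceptors and binding proteins, antagonists, the cytoplasmic relay, nuclear cofactors, planar polarity and further targets. Of these, 69 were tested and 0 passed an adjusted p of 0.05 in edgeR, while DESeq2 gave 1, Bmp2. With an unadjusted p under 0.05 there were 4 higher and 4 lower, against 2.95% and 2.73% of all genes tested. All 24 genes of the cytoplasmic relay were expressed, and their log2 fold changes ranged from -0.15 to 0.52 with a median of 0.05. The 12 genes for secretion, coreceptors and binding proteins were all expressed, including Wls, the carrier of Wnt ligands to the cell surface, and 6 of them had both mutant libraries below the wild-type range while 2 had both above it, against 15.1% and 15.8% of all genes tested.

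Bmp2, a growth factor gene that the Wnt4 branch maintains in the fetal ovary, had 25.0 and 21.9 CPM in mutant against 42.7 and 38.5 CPM in wild-type libraries. Both mutant libraries were below both wild-type libraries. On the log2 scale the fold change was -0.80 (standard error 0.13, 95% interval -1.11 to -0.49), with an adjusted p of 0.167 in edgeR, 0.00101 with the block and 0.00933 in DESeq2. Fst, the follistatin gene maintained by the same branch, had 180 and 170 against 161 and 157 CPM, in the opposite direction, with a log2 fold change of 0.14. Bmp2 and Fst are also on the pre-granulosa cell list.

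Gpc6, a glypican that binds growth factors at the cell surface, had 41.3 and 29.0 against 54.5 and 58.7 CPM, lower by a log2 fold change of -0.69 (SE 0.17; adjusted p = 0.440 in edgeR, 0.00690 with the block and 0.0573 in DESeq2). For Gpc6, both mutant libraries were below both wild-type libraries. Ccnd1, the cyclin D1 gene and a target in several tissues, had 68.9 and 67.9 against 91.1 and 85.8 CPM, a difference of -0.37 on the log2 scale (SE 0.10; adjusted p = 0.477 in edgeR and 0.0427 with the block). All 6 further targets (Bmp2, Fst, Ccnd1, Myc, Tnfrsf19 and Bambi) were separated between the genotypes, 4 lower and 2 higher in mutant ovaries, against backgrounds of 15.1% and 15.8%. These 6 were chosen with earlier results of these data known, so the count is a description and not a test of Wnt targets.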

How the data were processed

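RNA was sequenced from mutant and wild-type ovaries at E13.5, 2 libraries per genotype. The authors aligned reads with STAR 2.6.1d, counted reads over genes using summarizeOverlaps, and deposited unnormalised counts, a column per library. The submitters' processing notes name mm9, and the annotation and strand setting are not given in the sources used here. Columns were matched to libraries by genotype and replicate number.

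Counts of 34682 rows were analysed in R 4.3.3. edgeR 4.0.16 was run with TMM normalisation, filterByExpr, which left 15442 genes, and a quasi-likelihood F-test on genotype alone, adjusted by Benjamini-Hochberg over all genes at 0.05. Standard errors and 95% intervals were derived from its statistic. DESeq2 1.42.0 with default settings was an alternative, as were other normalisations and filters, the replicate number as a block, and leaving out each library. CPM per kilobase used merged exon lengths from GENCODE M1 on NCBIM37, which may differ from the annotation behind the counts. Of the genes, 7 have exons overlapping another gene on the opposite strand, including Ctnnb1, Axin2, Notum and Sfrp2. Promoters came from RefSeq (GRCm38.p6). Same-numbered libraries have consecutive library numbers in the column names, and their deviations from the genotype mean correlated at 0.481 over 15442 genes (0.689 over the Wnt signalling genes tested). The fits were tested on simulated data.

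The genes, their roles, the pathway list and the 10 marker lists were chosen with earlier results of these data known. Genes were given in full where they had an unadjusted p under 0.05, passed in DESeq2 or in the fit with the block, were among the highest 2 per kilobase of their role, or have a known part in the fetal ovary, adjacent ducts or canonical feedback. Of the other pathway genes, those passing in any fit and the 3 with the smallest p were named. Others, such as Fst and Wls, were chosen after their values were seen.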

Additional observations from a re-analysis of the deposited data

How the results depend on the processing

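The 0 Wnt signalling genes called became 1 with DESeq2 (Lgr5), 1 with DESeq2 and the replicate block, a setting chosen after seeing the data, and 6 at an unadjusted p under 0.05. Leaving out each library gave 0 to 1, with Wnt5a called without mutant replicate 1 and Dkk2 without mutant replicate 2. The 0 other pathway genes called became 1 with DESeq2, with and without the replicate block. Where a library is left out, the lone library of its genotype is assumed to vary like the other group. The median log2 fold change of the genes tested ranged from -0.11 to 0.05 with each library left out.

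With the replicate number as a block, 5 Wnt signalling genes were called, 4 higher (Lgr5, Rnf43, Wnt11 and Dkk2) and 1 lower (Wnt5a), with log2 fold changes of 0.61, 0.62, 0.92, 1.53 and -0.47. Their adjusted p-values in edgeR were 0.000635, 0.0138, 0.00914, 0.0303 and 0.0301. The block also called 5 of the other pathway genes, 1 higher (Dact2) and 4 lower (Bmp2, Gpc6, Ccnd1 and Apcdd1), and raised the count over all genes from 9 to 385, or 2.49% of those tested.

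The RLE and upper-quartile normalisations and the other filters on low counts left 0 Wnt signalling genes called. Wnt4, at 0.01, turned to -0.0030 with upper-quartile normalisation. The sign also turned with a library left out for Wnt2b (-0.29 to 0.075), Wnt4 (-0.16 to 0.21), Wnt6 (-0.13 to 0.15), Fzd7 (-0.24 to 0.28), Ctnnb1 (-0.029 to 0.085), Rspo1 (-0.13 to 0.0082), Rspo3 (-0.50 to 0.58), Lgr4 (-0.29 to 0.035), Sfrp2 (-0.27 to 0.73), Axin2 (-0.15 to 0.0074), Lef1 (-0.31 to 0.11) and Nkd1 (-0.11 to 0.00053). Lgr5 stayed between 0.54 and 0.70, Rnf43 between 0.55 and 0.70, Wnt11 between 0.70 and 1.13 and Sall1 between 2.70 and 3.04. The 42 expressed genes were 42 with each library left out.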
